A study of Homo sapiens with 6 samples.

Results

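Primordial germ cells are the embryonic precursors of eggs and sperm. The germ cell genes described here are PRDM1, TFAP2C, NANOS3, DDX4, DAZL, KIT, SYCP3, MAEL, TDRD1 and PIWIL2. Probes were taken by gene name from the array table, and all 10 genes were on the array, with 21 of its 47230 probes. PRDM1 had 4 probes, PIWIL2 had 3, NANOS3 and DDX4 had 1 each and the other 6 genes had 2 each. Each probe is named below by the number in its Illumina identifier.

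The arrays compared H1 cells, an established human embryonic stem cell line, transfected with 2 µg of the plasmid pSUPER-HERVH shRNA (3 samples) or with pSUPER-Luciferase shRNA as control (3 samples). HERVH is a family of endogenous retroviruses whose transcripts are abundant in these cells, and the study asked which genes its depletion affects. All 6 samples were at passage 32, grown without feeder cells on Matrigel in conditioned medium with basic fibroblast growth factor, and harvested 5 days after transfection. The samples are numbered replicates of 1 cell line, and no label says that they came from separate cultures, so p-values measure only the spread between these samples. The labels do not give the share of cells that took up the plasmid. In such bulk RNA, a change in the number of cells that express a gene and a change in RNA per cell cannot be told apart. No probe's gene name held HERVH (0 names), so the depletion itself was not read here.

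In human embryos, PRDM1 and TFAP2C act with SOX17 as the transcription factors that specify primordial germ cells. NANOS3 protects the new germ cells, and the receptor KIT with its ligand KITLG supports their survival and migration. DAZL and DDX4 mark later germ cells, SYCP3 builds the chromosome axis in meiosis, and PIWIL2, TDRD1 and MAEL serve the piRNA pathway, which silences retroelements in the germ line. PRDM1, TFAP2C and KIT are also used outside the germ line, PRDM1 and TFAP2C in trophoblast and other epithelia and KIT in blood stem cells, mast cells and melanocytes.

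Values are probe intensities, quantile-normalized between arrays. Arrays of 1 group correlated at r = 0.994 to 0.995 over all probes, and arrays of different groups at 0.968 to 0.972. A probe was called changed when its Benjamini-Hochberg adjusted p in the limma fit of all probes was under 0.05. That fit called 5695 probes (12.1%) higher and 5928 probes (12.6%) lower with HERVH shRNA, so change was common on these arrays. Detection p-values were not used here, and 463 probes of olfactory receptor genes, which most cells outside the nose do not express, gave a level for background instead. Their median intensity was 58.3 to 59.5 and their 95th percentile 79.1 to 82.0 on the 6 arrays. These intensities still contain that background, so the folds of dim probes understate any change above it.

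Of the 21 germ cell gene probes, 8 were called higher with HERVH shRNA, beside 12.1% of all probes, and 2 were called lower, beside 12.6% of all probes. The other 11 did not pass the threshold. By the brightest probe of each gene, PRDM1, TFAP2C, MAEL and TDRD1 rose, KIT fell, and NANOS3, DDX4, DAZL, SYCP3 and PIWIL2 did not pass. Among all 31334 named genes taken the same way, 14.8% were called higher and 13.2% lower. The median log2 fold change of the 10 genes was 0.14, and that of all named genes 0.01. The values of HERVH shRNA and control shRNA arrays did not overlap for 12 of the 21 probes, beside 34.8% of all probes. Probes of 1 gene share its transcripts, so the probe counts are not counts of independent genes.

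**Figure D1:**
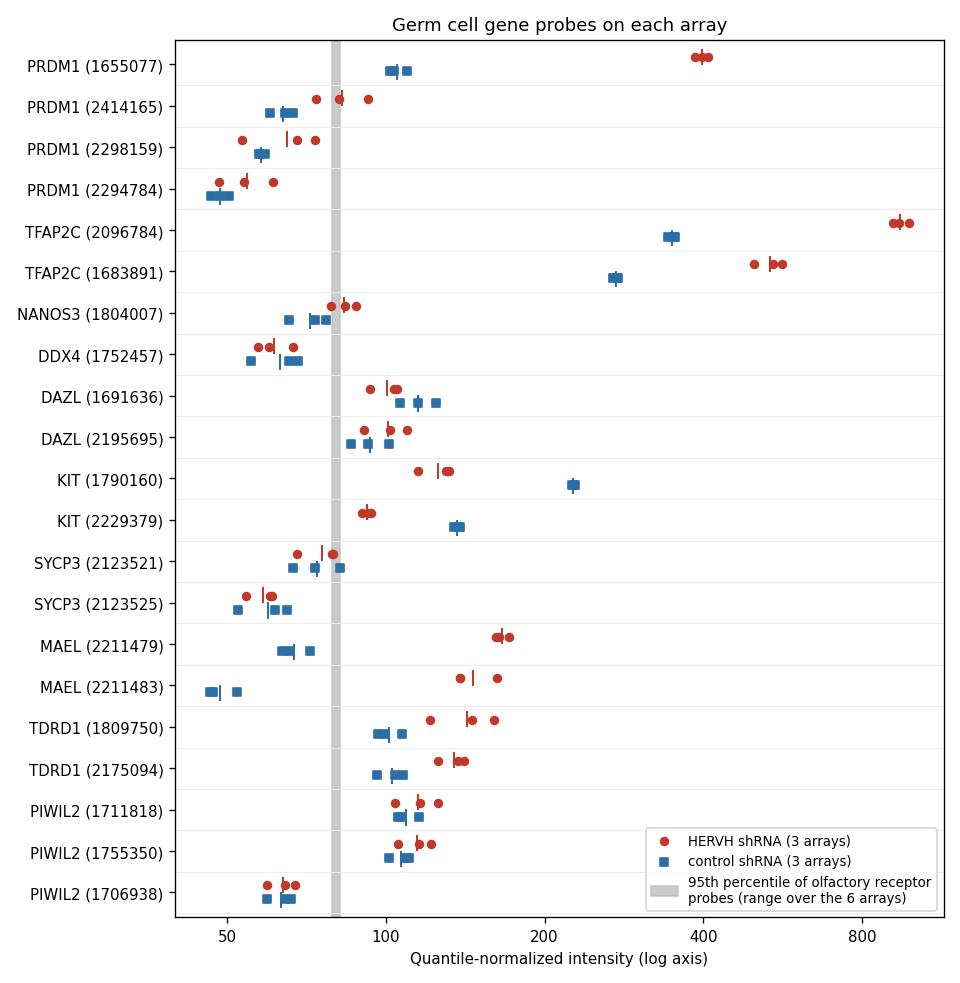
Quantile-normalized intensity (log axis) of each of the 21 probes on each array; circles are the 3 HERVH shRNA arrays, squares the 3 control shRNA arrays, short bars the group means, and the grey band the 95th percentile of olfactory receptor probes (79.1 to 82.0). The groups lie far apart for one PRDM1 probe and for both TFAP2C, KIT and MAEL probes, while DDX4, SYCP3 and PIWIL2 overlap.

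PRDM1, also called BLIMP1, is a transcriptional repressor that shuts off somatic genes in new primordial germ cells. Probe 1655077 read 385, 407 and 398 on the HERVH shRNA arrays, against 104, 102 and 109.8 on the control shRNA arrays. All 3 HERVH shRNA arrays stood far above the control arrays, which were close to the background level. The means were 397 ± 11.3 with HERVH shRNA and 105 ± 4.25 with control shRNA (SD, n = 3 each), a 3.78-fold difference. The log2 fold change was 1.92 (SE 0.08, 95% interval 1.76 to 2.08, adjusted p = 8.63e-14).

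The other PRDM1 probes were dim. Probe 2414165 read 73.7, 81.5 and 92.6 with HERVH shRNA and 64.5, 60.4 and 66.6 with control shRNA. It passed the test with a log2 fold change of 0.37 (SE 0.09, adjusted p = 0.00284). Only 2 of the 3 HERVH shRNA arrays and 0 of the 3 control arrays were above the background level. Set against that level in place of the control readings, the HERVH shRNA mean was 1.04-fold higher. HERVH shRNA replicate 1 was itself below the background level, so this is not a lower bound. Probes 2298159 and 2294784 were below that level on every array. Their log2 fold changes were 0.15 and 0.16, with adjusted p of 0.346 and 0.233. Without HERVH shRNA replicate 1, probe 2298159 passed with 0.29 (adjusted p = 0.0186). The 4 probes of PRDM1 thus differ in level and in size of change, and which transcripts each one reads was not examined.

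RefSeq (GRCh38.p14) gives 2 promoter windows for PRDM1, each from 250 bases before to 50 bases after a transcript start. They are shown because PRDM1 rose together with TFAP2C, whose protein binds the motif GCCNNNGGC, in capitals below. The windows are chr6:106086086-106086385 and chr6:106098691-106098990, both on the + strand.
PRDM1 window 1: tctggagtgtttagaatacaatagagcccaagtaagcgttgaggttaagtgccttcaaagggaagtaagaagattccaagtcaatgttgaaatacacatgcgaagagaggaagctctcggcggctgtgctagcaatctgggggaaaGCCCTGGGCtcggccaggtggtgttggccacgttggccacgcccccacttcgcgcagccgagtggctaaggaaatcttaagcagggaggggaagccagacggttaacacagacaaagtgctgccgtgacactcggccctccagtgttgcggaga
PRDM1 window 2: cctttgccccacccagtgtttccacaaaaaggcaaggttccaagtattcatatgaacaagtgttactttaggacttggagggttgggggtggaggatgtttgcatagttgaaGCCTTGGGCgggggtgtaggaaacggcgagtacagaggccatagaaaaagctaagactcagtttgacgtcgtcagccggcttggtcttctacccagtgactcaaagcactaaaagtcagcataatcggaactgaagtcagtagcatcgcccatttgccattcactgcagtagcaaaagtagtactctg
Each window held 1 match. The motif reads the same on both strands, and 23.2% of the 35116 windows in the table held at least 1. A match is a description of the letters only, and binding was not measured.

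TFAP2C (AP-2 gamma) is a transcription factor of primordial germ cells, trophoblast and naive pluripotent cells. Its brighter probe, 2096784, read 980.1, 941 and 913 with HERVH shRNA, against 343, 354 and 351 with control shRNA. The groups were well separated and both were far above background. The means were 945 ± 33.8 with HERVH shRNA and 349 ± 5.77 with control shRNA (SD, n = 3 each), a log2 fold change of 1.44 (SE 0.08, 95% interval 1.28 to 1.59, adjusted p = 6e-12). The second probe, 1683891, read 562, 542 and 499 with HERVH shRNA and 276, 274 and 269.7 with control shRNA. It rose by a smaller log2 fold change, 0.97 (SE 0.08, adjusted p = 3.81e-09), and its interval of 0.80 to 1.13 did not reach that of the first probe.

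NANOS3 encodes an RNA-binding protein that keeps primordial germ cells alive. Its probe read 83.6, 87.8 and 78.6 with HERVH shRNA and 76.9, 65.6 and 73.3 with control shRNA. The groups did not overlap, but all values lay near the background level, with 2 HERVH shRNA arrays and 0 control arrays above it. The log2 fold change of 0.21 (95% interval 0.04 to 0.39) had an adjusted p of 0.0694. It passed in 3 of 13 alternative settings, among them the fit without control shRNA replicate 1 (0.26, adjusted p = 0.0484).

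KIT is the receptor tyrosine kinase that primordial germ cells use to receive the survival signal KITLG. It was the only one of the 10 genes with a probe called lower. Probe 1790160 read 115, 130.0 and 132 with HERVH shRNA, against 228, 225 and 227 with control shRNA. Every HERVH shRNA array was below every control array. The means were 126 ± 9.09 with HERVH shRNA and 227 ± 1.63 with control shRNA (SD, n = 3 each), and the log2 fold change was -0.85 (SE 0.08, 95% interval -1.02 to -0.69, adjusted p = 3e-08). Probe 2229379 read 93.9, 90.0 and 92.4 with HERVH shRNA and 137, 138 and 134 with control shRNA. It fell too, with a log2 fold change of -0.57 (SE 0.07, adjusted p = 3.76e-06).

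KITLG, the ligand, moved the other way. Its brightest probe read 267, 217 and 217 with HERVH shRNA and 126, 116 and 85.7 with control shRNA. The log2 fold change was 1.11 (SE 0.12, adjusted p = 1.62e-07).

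DDX4 (also called VASA), an RNA helicase of germ granules, was at the level of background. Its probe read 57.2, 60.2 and 66.7 with HERVH shRNA and 68.2, 65.5 and 55.6 with control shRNA. No array was above the background level, and the groups overlapped. A DDX4 transcript was therefore not distinguishable from background here, and the log2 fold change of -0.04 (95% interval -0.23 to 0.15, adjusted p = 0.839) compares background readings.

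DAZL is an RNA-binding protein that licenses germ cells for their later fate. Probe 1691636 read 104, 105 and 93.6 with HERVH shRNA and 125, 106 and 115 with control shRNA. Probe 2195695 read 102, 109.7 and 90.9 with HERVH shRNA and 92.5, 86.0 and 101 with control shRNA. The first probe was lower on every HERVH shRNA array and the second overlapped, so the 2 probes had estimates of opposite sign. Their log2 fold changes were -0.19 (adjusted p = 0.107) and 0.11 (adjusted p = 0.453). The first passed under median centring (-0.25, adjusted p = 0.0392) and when only the brighter probes were tested (adjusted p = 0.0471). All DAZL values were above the 95th percentile of the olfactory receptor probes on every array, and below their 99th percentile on most.

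SYCP3, a structural protein of the synaptonemal complex, was near or below background. Probe 2123521 read 79.2, 68.0 and 79.6 with HERVH shRNA and 66.6, 82.0 and 73.4 with control shRNA, a log2 fold change of 0.03 (95% interval -0.16 to 0.22, adjusted p = 0.87). Only 1 array, a control, was above the background level. Probe 2123525 stayed below that level on all 6 arrays, with a log2 fold change of -0.02 (adjusted p = 0.902).

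MAEL (Maelstrom) takes part in piRNA-guided silencing of transposons in the germ line. Probe 2211479 read 164, 162 and 171 with HERVH shRNA, against 65.8, 63.5 and 71.9 with control shRNA. Probe 2211483 read 138, 163 and 138 with HERVH shRNA, against 47.1, 46.5 and 52.2 with control shRNA. Both probes were above the background level on all 3 HERVH shRNA arrays and on 0 of the 3 control arrays. The means of the first probe were 166 ± 4.96 with HERVH shRNA and 67.1 ± 4.31 with control shRNA (SD, n = 3 each). Its log2 fold change was 1.31 (SE 0.08, adjusted p = 4.48e-11) and that of the second probe 1.59 (SE 0.09, adjusted p = 8.11e-12). Set against the background level in place of the control readings, MAEL was at least 2.09-fold higher by the first probe. By the second probe it was at least 1.84-fold higher. With the 99th percentile of the olfactory receptor probes as that level, these minimum folds were 1.39 and 1.22. Every such minimum, here and below, depends on the level chosen.

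Both promoter windows of MAEL are shown for the same motif, GCCNNNGGC, and for the E-box CACGTG, which the MAX family of factors binds. The windows are chr1:166975332-166975631 and chr1:166989030-166989329, on the + strand, with both motifs in capitals.
MAEL window 1: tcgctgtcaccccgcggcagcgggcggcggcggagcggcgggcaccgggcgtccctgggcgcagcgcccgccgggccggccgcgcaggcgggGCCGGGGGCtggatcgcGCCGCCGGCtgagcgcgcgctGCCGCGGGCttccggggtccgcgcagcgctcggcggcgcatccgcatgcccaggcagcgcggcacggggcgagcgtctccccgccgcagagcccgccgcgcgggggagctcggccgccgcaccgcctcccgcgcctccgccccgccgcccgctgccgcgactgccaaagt
MAEL window 2: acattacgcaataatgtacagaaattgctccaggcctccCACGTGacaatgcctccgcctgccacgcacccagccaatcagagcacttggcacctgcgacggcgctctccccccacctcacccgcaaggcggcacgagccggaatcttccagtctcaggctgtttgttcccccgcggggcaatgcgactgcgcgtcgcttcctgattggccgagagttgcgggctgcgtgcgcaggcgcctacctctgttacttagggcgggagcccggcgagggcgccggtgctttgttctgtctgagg
Window 1 held 3 matches to GCCNNNGGC and 60 CpG dinucleotides, a count that 0.0911% of all windows reached, beside a median of 14. Window 2 held 1 E-box, which 7.26% of all windows hold, and 27 CpG dinucleotides. The E-box also reads the same on both strands, and matches of the 2 motifs did not overlap in these windows.

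TDRD1 is a tudor domain protein that gathers PIWI proteins in germ granules. Probe 1809750 read 160.5, 145 and 121 with HERVH shRNA, against 99.7, 107 and 96.7 with control shRNA. Probe 2175094 read 141, 137 and 125 with HERVH shRNA, against 108, 104 and 96.1 with control shRNA. The groups did not overlap for either probe, although the HERVH shRNA arrays were spread. The log2 fold changes were 0.48 (SE 0.09, adjusted p = 0.000365) and 0.39 (SE 0.08, adjusted p = 0.000768). The first probe missed the threshold when dim values were floored (adjusted p = 0.0527), while the second passed under all 13 alternatives.

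TDRD1 has 2 overlapping RefSeq windows, of which the upstream one, chr10:114179037-114179336 on the + strand, is shown because it held 2 E-boxes and 1 match to GCCNNNGGC. The window of KIT, the gene that fell, is chr4:54657707-54658006 on the + strand and held neither motif. These motifs did not separate the genes that rose from the others. NANOS3, which did not pass, had 3 matches to GCCNNNGGC over its windows, and DAZL, which did not pass either, had 1 match to GCCNNNGGC and 1 E-box.
TDRD1 window 1: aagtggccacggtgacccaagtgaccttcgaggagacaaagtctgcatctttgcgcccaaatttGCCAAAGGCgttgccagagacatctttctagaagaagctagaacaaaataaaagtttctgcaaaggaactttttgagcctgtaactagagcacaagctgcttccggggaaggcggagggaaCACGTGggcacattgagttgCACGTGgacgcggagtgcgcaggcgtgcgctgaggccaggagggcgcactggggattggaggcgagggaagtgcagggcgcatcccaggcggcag
KIT window: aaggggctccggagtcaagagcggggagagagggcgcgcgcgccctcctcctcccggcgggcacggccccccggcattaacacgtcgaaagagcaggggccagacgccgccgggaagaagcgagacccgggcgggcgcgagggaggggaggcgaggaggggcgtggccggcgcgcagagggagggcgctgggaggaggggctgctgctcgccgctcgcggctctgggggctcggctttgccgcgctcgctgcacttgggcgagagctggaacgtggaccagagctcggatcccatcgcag
The KIT window held 38 CpG dinucleotides and the TDRD1 window 17. Of the 10 genes, 8 had a window in the table, and TFAP2C and PIWIL2 were not matched.

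PIWIL2, an Argonaute-family protein that carries piRNAs, did not pass by any of its 3 probes. Probe 1711818 read 126, 116 and 104 with HERVH shRNA and 105, 107 and 116 with control shRNA. Probe 1755350 read 122, 106 and 116 with HERVH shRNA and 109, 102 and 111 with control shRNA. These 2 probes were above the background level on all arrays, and their groups overlapped. Their log2 fold changes were 0.07 (95% interval -0.10 to 0.25, adjusted p = 0.645) and 0.10 (95% interval -0.07 to 0.27, adjusted p = 0.488). Probe 1706938 was below background on every array (log2 fold change 0.01, adjusted p = 0.959).

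**Figure D2:**
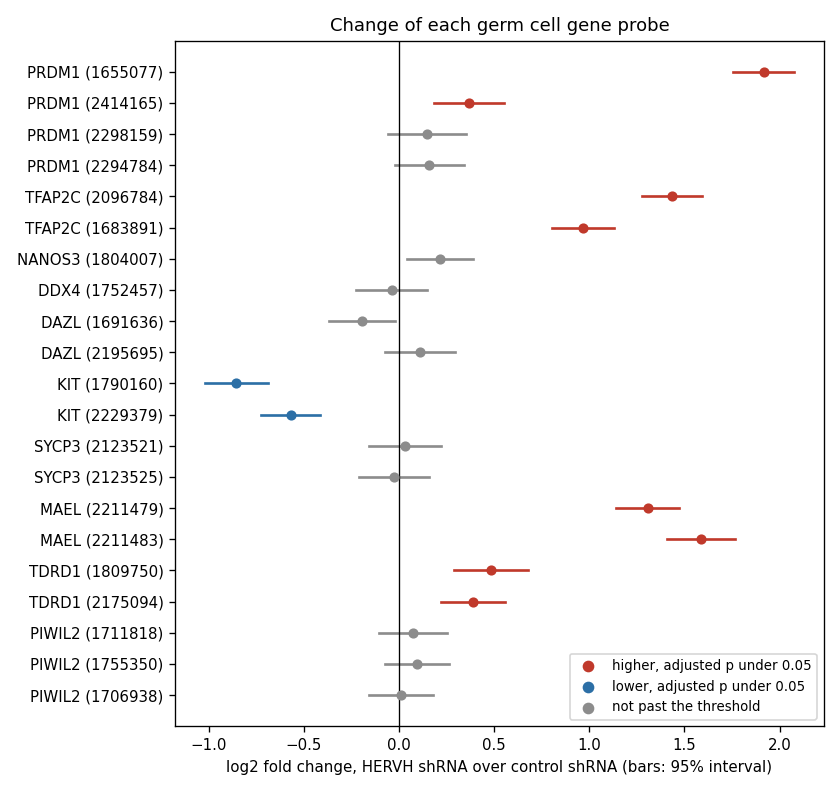
Log2 fold change of HERVH shRNA over control shRNA for each of the 21 probes, with 95% intervals from the limma fit and colours for the call. Among the 11 probes that did not pass, estimates ran from -0.19 to 0.21 and interval bounds from -0.37 to 0.39.

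Over the 11 probes that did not pass, no interval reached beyond -0.37 or 0.39, on the scale that still contains background. Of all 21 probes, 11 were above the background level on all 6 arrays, 5 on some arrays and 5 on none. With the 99th percentile of the olfactory receptor probes as background, 3 probes, both of TFAP2C and KIT probe 1790160, were above it on all 6 arrays.

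**Figure D3:**
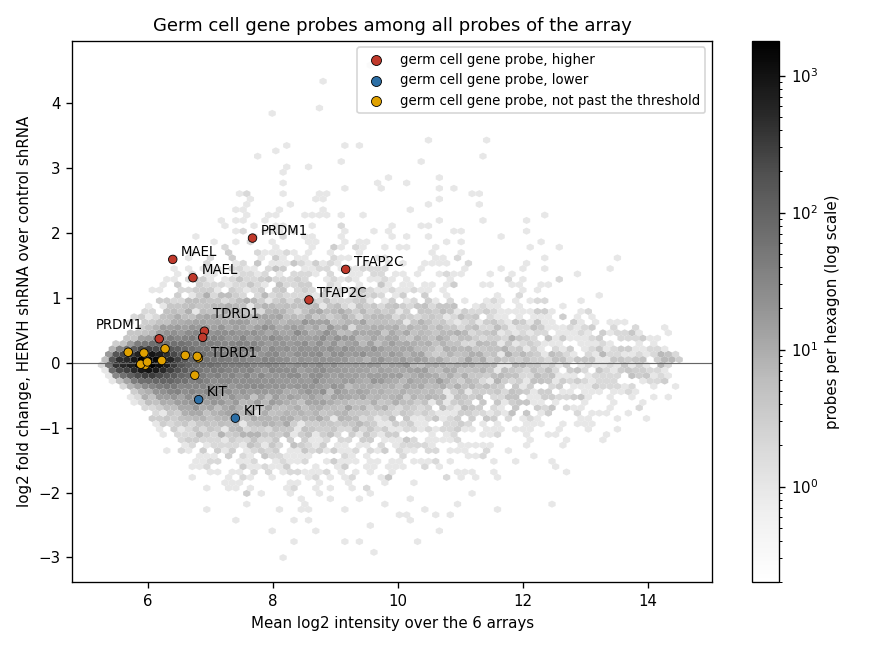
Log2 fold change (HERVH shRNA over control shRNA) against mean log2 intensity over the 6 arrays for all 47230 probes (grey hexagons, darker with more probes) and for the 21 germ cell gene probes (coloured by call). The MAEL probes and PRDM1 probe 1655077 lie well above 0 at low to middle levels. The probes that did not pass lie near 0 at low levels, and the brightest of DAZL and PIWIL2 reach the level of the MAEL probes.

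The genes around these 10 were read through lists that include them, each gene by its brightest probe. Among all named genes, as above, 14.8% were called higher and 13.2% lower. Of 24 genes of germ cell specification, 9 rose and 6 fell, with a median log2 fold change of 0.11. UTF1, a chromatin factor of pluripotent and germ cells, rose by a log2 fold change of 1.44 (398 ± 21.9 with HERVH shRNA and 146 ± 8.44 with control shRNA, SD, n = 3 each, adjusted p = 1.29e-11). DPPA5, a KH domain protein of pluripotent cells, averaged 48.3 with HERVH shRNA and 126 with control shRNA. It was below background on all HERVH shRNA arrays and at least 1.57-fold lower there than in controls (adjusted p = 1.14e-11). With the 99th percentile as background, that minimum was 1.18-fold. SOX17, the third factor of human germ cell specification, was below background on all 6 arrays, at 46.6, 44.9 and 48.1 with HERVH shRNA and 46.3, 41.0 and 45.4 with control shRNA. DPPA3 and PRDM14, further germ cell regulators, had log2 fold changes of -0.16 (adjusted p = 0.297) and -0.10 (adjusted p = 0.467).

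Of 23 later germ cell and germ granule genes with a probe, 4 rose, 4 fell and 15 did not pass. Beside them, 14.8% of all named genes were called higher and 13.2% lower. The median log2 fold change of the list was -0.04, and 10 of its genes were below background on every array. TEX14, needed for the bridges between male germ cells, averaged 139 with HERVH shRNA and 70.7 with control shRNA. Its controls were below background, so it was at least 1.76-fold higher (adjusted p = 9.39e-09), or 1.17-fold with the 99th percentile as background. TAF7L, a germ cell subunit of the general transcription machinery, averaged 91.5 with HERVH shRNA and 57.3 with control shRNA. Its controls too were below background, and it was at least 1.15-fold higher (adjusted p = 2.84e-06). No TAF7L reading reached the 99th percentile of the olfactory receptor probes, so at that level no minimum can be given. TDRD7, a tudor protein of germ granules, rose by a log2 fold change of 0.43 (adjusted p = 0.000567). TEX15, which acts in male meiosis and transposon silencing, averaged 70.8 with HERVH shRNA and 101 with control shRNA. It was below background on the HERVH shRNA arrays and at least 1.26-fold lower there (adjusted p = 1.7e-05). Like TAF7L, it stayed under the 99th percentile on every array. The count of genes that fell dropped to 2 without control shRNA replicate 1 and likewise without control shRNA replicate 2.

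Among the 24 genes of piRNA and retroelement silencing, 6 rose and 4 fell, with a median log2 fold change of 0.00. Of all named genes, 14.8% were called higher and 13.2% lower. MAEL, TDRD1 and TDRD7, given above, were among those that rose, and TEX15 was among those that fell. Of the 24 genes, 10 were below background on every array, among them FKBP6, which was called lower. TDRD5 and PLD6, called higher, were above background on only 2 HERVH shRNA arrays each. TDRD12, called lower, was above it on only 2 control arrays. HENMT1 (C1orf59 on the array) fell well above background, averaging 485 with HERVH shRNA and 618 with control shRNA (adjusted p = 0.00118). Without control shRNA replicate 3 the count of genes that fell was 2.

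Of the 23 meiosis genes with a probe, 1 rose, 3 fell and 19 did not pass (median log2 fold change -0.01). Over all named genes the shares were 14.8% higher and 13.2% lower. DMC1, the recombinase of meiotic strand exchange, rose to 2075, 2039 and 1864 with HERVH shRNA, against 966, 1156 and 1042 with control shRNA. Its log2 fold change was 0.92 (SE 0.08, adjusted p = 2.55e-08). MND1, which helps DMC1 in strand exchange, fell by 0.94 on the log2 scale, with 193 ± 15.7 in HERVH shRNA cells and 370.3 ± 17.5 in control shRNA cells (SD, n = 3 each, adjusted p = 1.23e-08). YTHDC2, an RNA helicase of meiotic entry, fell by 0.42 (adjusted p = 0.000633) and TEX11 by 0.25 (adjusted p = 0.035), which was lost in 7 of 13 alternatives.

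**Figure D4:**
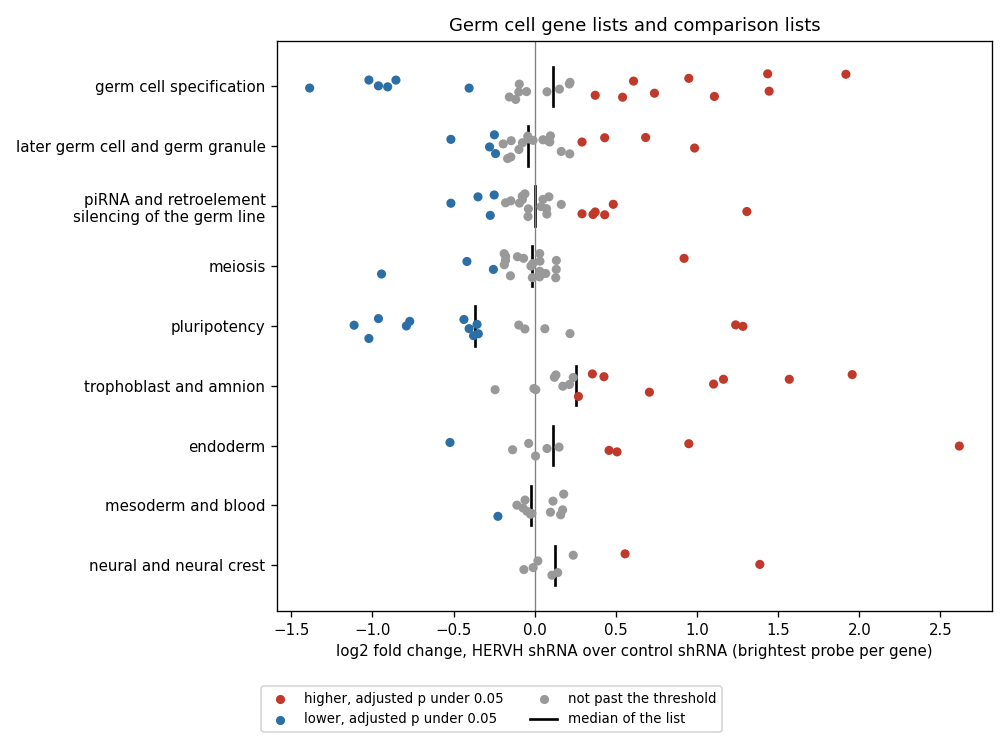
Log2 fold change (HERVH shRNA over control shRNA) of each gene of the germ cell lists and of the comparison lists, by its brightest probe, with black bars for the list medians and colours for the call. The germ cell specification list spreads to both sides (9 higher, 6 lower), the meiosis list clusters at 0, the pluripotency list lies mostly below 0 and the trophoblast and amnion list mostly above it.

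Markers of the stem cells and of other cell types moved on the same arrays. POU5F1 (OCT4), a core pluripotency factor also kept in primordial germ cells, averaged 1409 ± 27.5 with HERVH shRNA and 2870.4 ± 298 with control shRNA (SD, n = 3 each), a log2 fold change of -1.02 (adjusted p = 5.11e-09). NANOG fell by 0.40 on the log2 scale (adjusted p = 0.000238) and SOX2, which human primordial germ cells lack, by 0.44 (adjusted p = 0.000975). The SOX2 call was lost in the fit with dim values floored (adjusted p = 0.0675), although the SOX2 readings themselves were far above that floor. All 8 markers of pluripotent stem cells were above the background level on every array, and 6 fell. Their summed intensity was 21077 to 22479 with HERVH shRNA and 32208 to 32889 with control shRNA.

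Trophoblast and amnion genes, some of which share regulators with early germ cells, gave 8 of 16 higher and 0 lower in the limma fit, and 1 lower at an unadjusted p under 0.05. That gene, ELF5, was below background on every array. It was called without HERVH shRNA replicate 3 and without control shRNA replicate 1. HAND1, a transcription factor of trophoblast and mesoderm, averaged 221 with HERVH shRNA and 57.0 with control shRNA, at least 2.78-fold higher (adjusted p = 1.02e-13). TFAP2A, a relative of TFAP2C, averaged 207 with HERVH shRNA and 69.8 with control shRNA, at least 2.61-fold higher (adjusted p = 1.75e-12). With the 99th percentile as background, the minimum was 1.85-fold for HAND1 and 1.73-fold for TFAP2A. ISL1, a homeobox factor of amnion and cardiac mesoderm, rose by 1.16 (adjusted p = 3.38e-10). IGFBP3, a binding protein of insulin-like growth factors, rose by 1.10 (adjusted p = 5.89e-10). The summed intensity of the 8 trophoblast and amnion markers was 1108 to 1137 with HERVH shRNA and 579 to 600.2 with control shRNA. Of these markers, GATA2, CDX2 and CGA were below background on every array. GATA2 was still among the genes called higher, as were KRT7 and VTCN1, each above background on 1 array. The part of such cells in the rise of PRDM1 and TFAP2C was not tested.

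The 6 primordial germ cell markers summed to 1639 to 1706 with HERVH shRNA and 874 to 896 with control shRNA, with 2 higher, 1 lower and SOX17 below background throughout. The 4 markers of later germ cells summed to 395 to 411 with HERVH shRNA and 316 to 325 with control shRNA. MAEL was the one called, and DDX4 was below background throughout. PRDM1, TFAP2C, NANOS3 and KIT in the first list and all 4 in the second are among the 10 genes. These sums therefore largely repeat values given above. The other primordial germ cell markers, SOX17 and DPPA3, did not pass. Of the 4 endoderm markers, 0 rose in the limma fit (0 at an unadjusted p under 0.05) and 1 fell, while GATA4, GATA6 and SOX17 were below background on every array. The one that fell was FOXA2, a forkhead factor of endoderm, with 59.3 ± 4.82 in HERVH shRNA cells and 85.0 ± 2.39 in control shRNA cells (SD, n = 3 each). It was below background on the HERVH shRNA arrays and at least 1.05-fold lower there (adjusted p = 3.06e-05). No FOXA2 reading reached the 99th percentile of the olfactory receptor probes, so at that level no minimum can be given. In the wider endoderm list 4 of 10 genes rose, beside 14.8% of all named genes, and 1, again FOXA2, fell, beside 13.2%. FOXA1, among those that rose, was below background on every array. AFP, the fetal serum protein, rose by a log2 fold change of 2.62 (adjusted p = 8.38e-16) and CER1, a secreted antagonist of NODAL, by 0.51 (adjusted p = 3.19e-05). CXCR4, a chemokine receptor of endoderm and of migrating germ cells, averaged 105 with HERVH shRNA and 54.0 with control shRNA. Its controls were below background, and it was at least 1.31-fold higher (adjusted p = 1.84e-08). Only 1 HERVH shRNA array was above the 99th percentile of the olfactory receptor probes, which gave no minimum fold for CXCR4. Mesoderm and blood genes gave 0 of 12 higher in the limma fit, also 0 at an unadjusted p under 0.05, and 1 higher, MESP2, without HERVH shRNA replicate 3. They gave 1 lower, EOMES, whose call was lost without any one of 4 arrays (HERVH shRNA replicates 2 and 3, control shRNA replicates 1 and 3). The neural and neural crest list had 2 of 8 higher, NES with 1.39 (adjusted p = 1.69e-11) and OTX2 with 0.56 (adjusted p = 5.65e-05). PAX6, SOX1, SOX10 and MITF stayed below background on all arrays.

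The 6 fibroblast markers summed to 16807 to 17034 with HERVH shRNA and 9092 to 9513 with control shRNA, with 4 higher and 1 lower. The largest part of that gap came from VIM, which averaged 8824 with HERVH shRNA and 3304 with control shRNA. THY1 averaged 4469 and 4262 and did not pass. COL1A2, a chain of type I collagen, rose by 2.09 on the log2 scale (adjusted p = 2.74e-14), and S100A4, a calcium-binding protein of motile cells, fell by 1.22 (adjusted p = 6.24e-11). The part of such cells in the changes of the germ cell genes was not tested.

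For each of the 5 genes that changed, the 2 other gene names with the most similar profile were taken from all called probes, by Pearson's r of log2 values over the 6 arrays. They were ACTG2, a smooth muscle actin, and FAM43A for PRDM1 (r = 0.9998 each), and ARHGEF7 and COL8A1 for TFAP2C (0.9998 and 0.9997). They were C19orf60 and LOC285741 for KIT (0.9995 each), TNFRSF21 and INA for MAEL (0.9998 each), and ADAP1 and DNAJB14 for TDRD1 (0.9926 and 0.9924). With 2 groups of 3 arrays such values mostly follow the gap between the groups. How many other called probes come close to them was not counted.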

How the data were processed

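RNA of 3 HERVH shRNA and 3 control shRNA samples was hybridised to 1-colour Illumina arrays, 500 ng of total RNA per sample. The intensities used are those of the deposited value table, whose columns carry the sample identifiers. They are on a linear scale, with array medians of 71.2 to 73.8 and lowest values of 28.9 to 39.1. GenomeStudio is named in the submitters' processing notes, with no version. For background correction, normalization and array model the sources used here name no setting. Gene names per probe came from the deposited non-normalized table (column type: other, text), and its 12 columns of signals and detection p-values, which match no label, were not used. Of 150 listed genes 146 had a probe, 3 of them under an older name found through RefSeq.

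Intensities were quantile-normalized, log2-transformed without offset or floor, and fitted for all 47230 probes with limma 3.58.1 (lmFit, eBayes) in R 4.3.3. P-values were two-sided and adjusted by Benjamini-Hochberg over all probes. With 3 against 3 arrays an exact permutation test of 1 value cannot go below p = 0.1, so none is given. The fit was tested on simulated arrays with 200 changed probes. That is far fewer than were called here, so the simulation cannot show how the fit behaves when change is this common. The olfactory receptor background was chosen after the values were seen. The number of arrays limits the precision. Named genes were the 10 members, up to 4 called genes of each list with the largest change and no overlap, POU5F1, NANOG and SOX2, and the 2 genes most like each changed member. Names outside this rule, such as KITLG, SOX17, DPPA3, ELF5, MESP2 and the fibroblast markers, were chosen after their values were seen. Members and lists were chosen with earlier results of these data known.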

Additional observations from a re-analysis of the deposited data

How the results depend on the processing

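Besides leaving out each array in turn (6 fits), 7 alternatives were run: no normalization, median centring, a floor at the 25th percentile, an offset of 50, the brighter probes only, an intensity trend and a replicate block. The non-normalized table with its own background correction was not run, because its columns name no sample. Every one of the 10 called germ cell gene probes kept its direction in all 13 fits. The calls lost were PRDM1 probe 2414165 and TDRD1 probe 1809750, both in the fit with the floor. The count of germ cell gene probes called was 8 to 9 higher and 2 lower without single arrays, and those of all probes 5156 to 5301 higher and 5268 to 5594 lower. In the later germ cell list, the genes called lower numbered 1 under the floor and 2 to 3 without single arrays, against 4. In the piRNA list they numbered 2 without normalization, under the floor and with the brighter probes only, and 2 to 4 without single arrays. Endoderm genes called lower numbered 0 with the brighter probes only, which did not include that of FOXA2. Without single arrays, 0 to 1 trophoblast and amnion genes were called lower, and 0 to 1 mesoderm and blood genes in each direction.

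The replicate block called 5685 probes higher and 5912 lower, and all 21 germ cell gene probes had the same call as without it. Deviations of same-numbered samples correlated at 0.05, 0.00 and 0.03, so the numbers were not taken as pairs, and not every sample correlated best with its own number. Of the other genes recomputed under it, TEX11 alone lost its call with the block (adjusted p = 0.0536). Signal over background limits the reading of DDX4, SYCP3, NANOS3, 3 of the 4 PRDM1 probes and PIWIL2 probe 1706938. The control readings of TDRD1, MAEL and PRDM1 probe 1655077 all lay under the 99th percentile of the olfactory receptor probes. So did the HERVH shRNA readings of KIT probe 2229379 and most readings of DAZL.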

Other observations

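The pluripotency list did not move as one. Of 16 genes, 10 fell and 2 rose, with a median log2 fold change of -0.37. The 2 that rose were LEFTY1 and LEFTY2, secreted antagonists of NODAL. LEFTY1 averaged 9723 ± 787 with HERVH shRNA and 3995 ± 287 with control shRNA (SD, n = 3 each), a log2 fold change of 1.28 in the limma fit (adjusted p = 1.79e-10). LEFTY2 rose by 1.24 (adjusted p = 5.04e-10). DPPA2, a chromatin factor of pluripotent and germ cells, fell by 1.11 on the log2 scale, to 175 ± 6.97 with HERVH shRNA, against 377 ± 8.18 with control shRNA (SD, n = 3 each, adjusted p = 3.22e-10 in the limma fit). All 3 HERVH shRNA arrays were above all control arrays for LEFTY1 and LEFTY2 and below them for DPPA2. TDGF1, the NODAL co-receptor, had a brightest probe at 102 with HERVH shRNA and 97.7 with control shRNA, a log2 fold change of 0.06 (adjusted p = 0.695). This probe was near background, above the 99th percentile of the olfactory receptor probes on only 1 array, with HERVH shRNA.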
